A study of Mus musculus with 2 samples.

Results

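Keratins, claudins and collagens are gene families of epithelial and matrix-making cells, and their signals were read on 1 Affymetrix array of mouse marrow cells cultured with the ID8 tumour line. Members were all genes with a probe set named for 1 symbol only, where that symbol is Krt or Cldn and a number, or Col, a number, a and a number. This gave 44 keratin genes on 55 probe sets, 20 claudin genes on 30 and 42 collagen genes on 82, in all 106 of 18193 genes with such a probe set. A further 5 keratins (Krt9, Krt39, Krt40, Krt87 and Krt90), 3 claudins (Cldn17, Cldn20 and Cldn24) and 2 collagens (Col28a1 and Col6a6) of the GRCm38.p6 gene table had none and are not analysed here.

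Femoral marrow of C57BL/6 mice was kept in RPMI-1640 with 5% FBS. For the ID8-induced myeloid-derived suppressor cells (MDSC) the labels describe 4 days in the lower chamber of a transwell plate, with the tumour cells above, while the sample's name speaks of supernatant. They give the phenotype CD11b+Gr1+ for this sample and for the control, which is named as bone marrow cells with no tumour cell partner. Each group is 1 array, so no value here has a replicate error, no test was possible and the number of arrays limits the precision. In the control column the signals stand in interleaved descending runs along the probe set IDs. Over the whole column 3103 of 45036 steps from row to row are rises. Taken alone, the 22626 values at or above its last value have 0 rises, and so have the 22411 below it. Those values cannot be tied to genes, and no fold change is given.

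The ID8 line derives from transformed ovarian surface epithelium of C57BL/6 mice, so its transcripts and those of the marrow cells bind the same probes. Keratins build the intermediate filaments of epithelial cells, always from a type I and a type II chain together, and Krt8 with Krt18 is the pair of simple epithelia. Claudins are the membrane proteins that seal or perforate the tight junctions between epithelial cells. Collagens are secreted or membrane-bound triple helices of the extracellular matrix, made in bone marrow chiefly by stromal, bone and vascular cells. Leukocytes are not known as a main source of any of the 3 families. RNA that came from ID8 cells and RNA made in the marrow culture cannot be told apart on this array, and neither can fewer cells of a type and less RNA per cell.

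Keratins differ from claudins and collagens in a motif in the DNA before their start sites, a feature that does not depend on the array. In RefSeq promoter windows of GRCm38.p6, 32 windows of 31 keratin genes were found, 24 of 16 claudin genes and 36 of 33 collagen genes. The motif TATAAA, read on the strand of the gene in the last 40 bases before the start, was in 13 of the 32 keratin windows (40.6%), in 1 claudin window (4.17%) and in 1 collagen window (2.78%), against 2.31% of all 32851 windows. Searched on both strands over the 250 bases before the start, it was in 46.9% of keratin, 4.17% of claudin and 13.9% of collagen windows and in 12.4% of all. Among keratins with a window, 6 of 8 of hair follicle sheaths and 3 of 6 of the hair shaft had it in the last 40 bases. So had 1 of 4 of simple epithelia, 2 of 5 type I and 1 of 6 type II of stratified epithelia, and 0 of 2 not classed. The stretches below show the 60 bases before the start, 5′ to 3′ on the strand of the gene, with TATAAA in capitals. They were chosen after their values were seen, to set 4 keratins with the motif beside the Krt8 and Krt18 pair, the claudin with the strongest signal and a collagen I chain, which do not hold it in these stretches.
Krt71 (chr15:101743098-101743157, minus strand): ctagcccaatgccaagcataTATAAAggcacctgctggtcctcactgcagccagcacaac
Krt32 (chr11:100088270-100088329, minus strand): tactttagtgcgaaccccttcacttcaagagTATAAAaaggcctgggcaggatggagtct
Krt20 (chr11:99438154-99438213, minus strand): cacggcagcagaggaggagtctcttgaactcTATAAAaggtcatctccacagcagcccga
Krt10 (chr11:99389365-99389424, minus strand): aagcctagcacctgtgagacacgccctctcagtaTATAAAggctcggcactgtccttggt
Krt8 (chr15:102004343-102004402, minus strand): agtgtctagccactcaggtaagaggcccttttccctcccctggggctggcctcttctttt
Krt18 (chr15:102028156-102028215, plus strand): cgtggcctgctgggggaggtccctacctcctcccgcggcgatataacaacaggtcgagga
Cldn1 (chr16:26371840-26371899, minus strand): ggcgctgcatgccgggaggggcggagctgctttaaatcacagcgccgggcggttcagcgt
Col1a2 (chr6:4505558-4505617, plus strand): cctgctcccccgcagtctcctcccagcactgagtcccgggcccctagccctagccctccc

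The 44 keratins lie on chromosomes 11 and 15, with 22 genes each, while the claudins are spread over 10 chromosomes and the collagens over 15. Keratins with TATAAA near the start had signals from 25.3 to 172.53 (median 72.5, 13 genes, 7 above the floor defined next). Those without it had signals from 5.57 to 1213 (median 80.2, 18 genes, 11 above). The ranges overlap. A match is only a run of letters, and its absence says nothing on how a gene is transcribed.

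Keratin signals lay mostly in the lower and middle range of the array. The unit is the deposited MAS5 signal on a linear scale. A gene was read on its brightest probe set and called above the floor when that signal exceeded 68.77, the 40th percentile of the array. By this rule 25 of 44 keratins were above the floor (56.8%), against 71.3% of all 18193 genes, and 1 of 44 was at or above the 90th percentile (619.81), against 14.8% of all genes. Their median signal was 77.9, compared with 125.73 over all genes. On the dimmest probe set of each gene the keratin median was 62.8, compared with 68.21 over all genes. Of the 44 keratins, 15 lay within 10 percentile points of the floor, so their place above or below it turns on small differences. With the floor at the 20th percentile 88.6% of keratins, 90% of claudins and 85.7% of collagens passed it, close to the 87.5% of all genes, so the lower shares of the families hold for the floors at the 40th and 60th percentile and not for that one.

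The keratins of simple epithelia, the class that ovarian surface cells and most glands use, lay between percentiles 25.4 and 56.3 on their brightest probe sets. Krt18, the type I partner, read 94.87 on its only probe set. Krt8, the type II partner, read 46.62, 58.09 and 106.89 on its 3 probe sets, so 2 of them were below the floor. The brightest and the dimmest have the letter x in their IDs, which marks some probes that can bind other transcripts. The place of Krt8 above the floor rests on that brightest probe set. Krt7, found in ducts and mesothelium, read 71.42, and Krt20, of the gut lining, 72.47, both just above the floor. Krt19, the smallest keratin and common in ducts and mesothelium, read 46.03, below it. In this class 4 of 5 genes were above the floor on their brightest probe set, a class too small to set its share against that of all genes, and the highest signal was 106.89.

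Apart from Krt42, the strongest keratin signals were those of skin and hair keratins. The hair and stratified epithelium classes also hold most of the 44 keratins, so the lead does not set these classes apart. Krt81 and Krt86, type II chains of the hair shaft, read 333.64 and 227.15 on 1 probe set each. Krt5, the type II chain of basal epidermis, read 192.87, while its type I partner Krt14 read 39.14, 71.39 and 78.49. Krt10, the type I chain of upper epidermis, read 56, below the floor. Of 4 type I and type II pairs examined (Krt8 with Krt18, Krt5 with Krt14, Krt4 with Krt13 and Krt1 with Krt10), 3 had both chains above the floor on their brightest probe sets, and the pair of Krt1 and Krt10 had both below it. Taken singly, 56.8% of keratins and 71.3% of all genes were above the floor, and no like count was made for unrelated genes. Krt8 passed only on a probe set with the letter x. Of the 10 hair shaft keratins, 8 were above the floor, with signals from 10.8 (Krt82) to 333.64, and of the 8 hair follicle sheath keratins 4 were, from 25.3 to 172.53. All of these genes have 1 probe set, and 57.7% of all genes with 1 probe set were above the floor. Among stratified keratins 4 of 8 type I and 3 of 8 type II genes were above the floor, against 71.3% of all genes. The dimmest of the family, Krt2 of the upper epidermis, read 5.57. Signals of different probe sets also depend on how well each hybridises, so their order is not an order of transcript abundance.

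The strongest keratin signal came from Krt42, a type I keratin gene, and from 1 of its 2 probe sets. That probe set, with the letter x in its ID, read 1213.31, and the other, with no letter, read 94.68. The letter x in an Affymetrix ID marks a probe set with some probes that can bind other transcripts, and which transcript gave this signal was not tested. Without Krt42 the highest keratin signal was 333.64, and 0 of 43 keratins reached the 90th percentile.

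**Figure D1:**
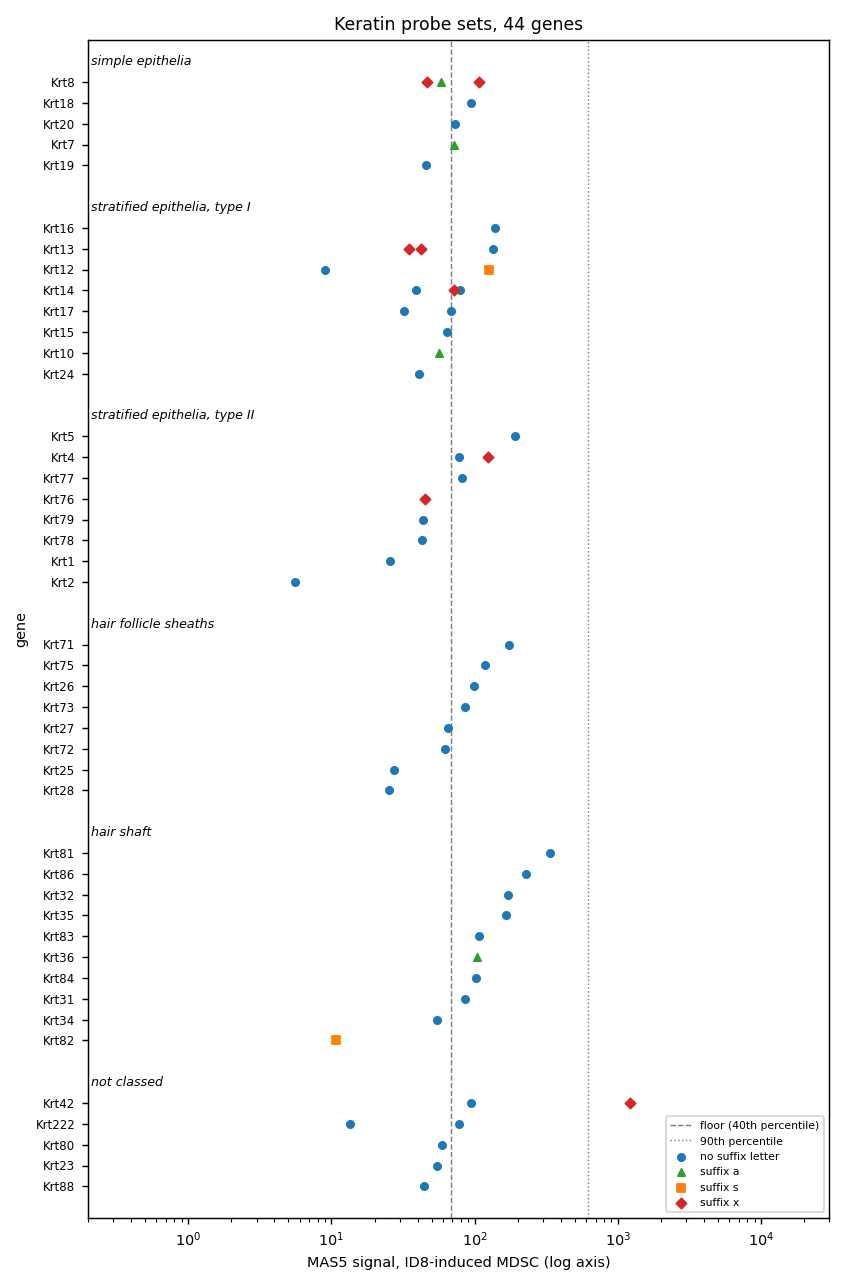
MAS5 signal of each keratin probe set on the ID8-induced MDSC array (log axis), genes grouped by class and marked by the suffix letter of the probe set ID, with the floor at 68.77 (dashed) and the 90th percentile at 619.81 (dotted). All points but the Krt42 probe set at 1213.31 lie at or below 333.64, and the Krt8 probe sets lie on both sides of the floor.

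Claudins lay in the same range, with 1 exception. Of 20 claudins, 12 were above the floor (60%, against 71.3% of all genes) and 1 was at or above the 90th percentile (against 14.8% of all genes), and the median signal was 73.84. Cldn1, a sealing claudin of epidermis and many epithelia, read 598.89, 1208.76 and 1483.58 on 3 of its 4 probe sets and 9.97 on the fourth. The first of these has no letter in its ID and lay at percentile 89.7. The other bright ones, with the letters a (probes shared by transcripts of 1 gene) and x, lay at 94.7 and 95.8, and the dim one, with no letter, at 1.69. No other member of the 3 families had more than 1 probe set at or above the 90th percentile. Without it, the highest claudin signal was 265.04 and 11 of 19 claudins were above the floor, with a median of 73.33.

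Cldn3, Cldn4 and Cldn7 are among the claudins known from human ovarian carcinoma, and none of the probe sets of these genes reached the 90th percentile. Cldn3, a sealing claudin, read 91.55, 98.66, 230.17 and 239.17 on 4 probe sets, all above the floor. Cldn4, its neighbour on chromosome 5 and likewise a sealing claudin, read 54.09, below it. Cldn7, which is common in glandular epithelia, read 71.95, just above it.

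Other claudins are described by their known sites. Cldn5, the claudin of endothelium, read 45.61, and Cldn11, of myelin and of Sertoli cells, read 67.91, both below the floor. The 3 channel-forming claudins were above it on their brightest probe sets, as were 71.3% of all genes. Cldn10 read 265.04, Cldn15, of the intestine, 147.28 and Cldn2 74.35. Cldn9, known from the inner ear, read 15.44 and 186.36 on its 2 probe sets. Cldn12 gave the lowest brightest-probe signal of the family, 27.38 and 28.59, and Cldn8, of the kidney tubule, read 29.52.

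**Figure D2:**
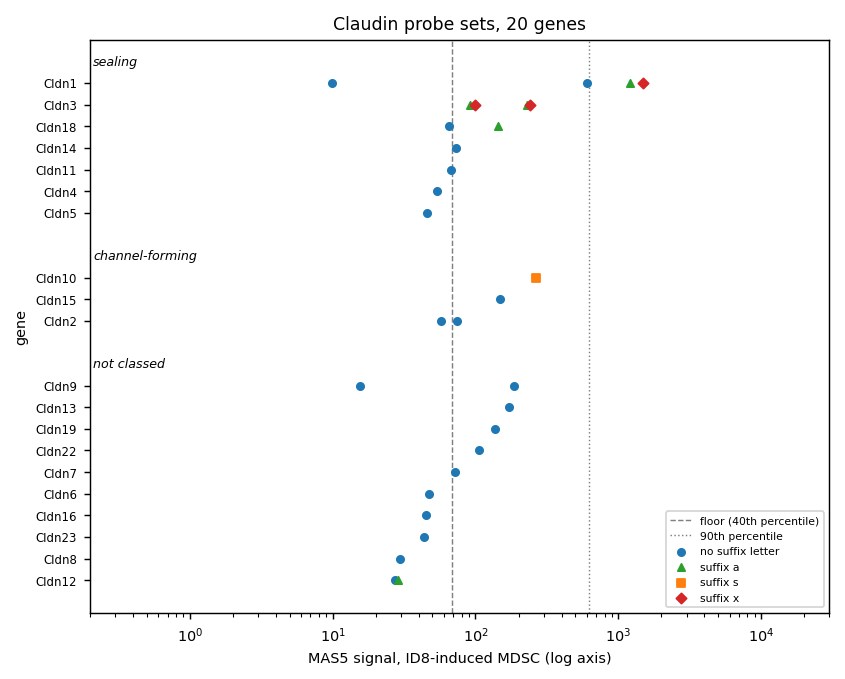
MAS5 signal of each claudin probe set on the ID8-induced MDSC array (log axis), in the same layout as for keratins. Cldn1 has 3 probe sets between 598.89 and 1483.58 and 1 at 9.97, while all other claudin probe sets lie at or below 265.04.

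Collagens had 27 of 42 genes above the floor (64.3%, against 71.3% of all genes), 0 of 42 at or above the 90th percentile (against 14.8%) and a median of 100.1. The highest signal was 270.02, of Col1a1, the main chain of bone and skin collagen, and its other probe set read 34.71. Col1a2, which joins Col1a1 in collagen I, read 27.56, 47.75 and 95.98, so 1 of 3 probe sets was above the floor. Col3a1, the fibril chain of soft tissues, read 43.88 and 63.03, both below it. Col5a1, a chain that starts collagen I fibrils, read 68.63, 103.27 and 131.71, and its partner Col5a2 read 44.7 and 45.41. Of the 11 fibril-forming collagens, 6 were above the floor on their brightest probe set (against 71.3% of all genes) and 3 on every probe set (against 49.7%). Of these 11 genes 8 have several probe sets, which makes passing on every one less likely.

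Chains that are built into one molecule mostly lay on both sides of the floor. Of 8 sets of partner chains examined, collagen I was the only 1 with all chains above it on their brightest probe sets, and each of the other 7 had at least 1 chain on either side. Taken singly, 64.3% of collagens and 71.3% of all genes were above the floor, so sets of a few chains can often fall on both sides. No like count was made for unrelated genes, and the mix is not read as a trait of partner chains. Col4a1 and Col4a2, the chains of every basement membrane, lie next to each other on chromosome 8. Col4a1 read 46.44 and 128.76 and Col4a2 67.43. In the basement membrane class 3 of 6 genes were above the floor on their brightest probe set (against 71.3% of all genes) and 0 of 6 on every probe set (against 49.7%). Of these genes 5 have several probe sets, which makes passing on every one less likely, and the class is small. For collagen VI, the beaded filament around many cells, Col6a1 read 142.15 and Col6a2 100.38 and 127.17, while Col6a3 read 36.43.

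The other collagens with the stronger signals belong to different classes. Col25a1, a transmembrane collagen, read 21.85 and 201.24, Col20a1, a fibril-associated one, 55.77, 59.85, 161.41 and 191.4, and Col7a1, of the anchoring fibrils under skin, 182.7. The endostatin-type collagens of basement membranes were above the floor on all probe sets, Col18a1 at 108.66 and 177.73 and Col15a1 at 114. Col17a1, of hemidesmosomes in basal epithelium, read 27.66, below it. On brightest probe sets the lowest signals of the family were those of Col8a2, of the cornea, at 8.39 and of Col6a5 at 25.58. Counting every probe set, the lowest was 0.49, on 1 of the 2 probe sets of Col4a5, a minor basement membrane chain, whose other probe set read 65.75. No class of collagens stood apart: signals of fibril-associated members ran from 46.5 to 191.4 (7 of 9 above the floor) and of transmembrane members from 27.7 to 201.24 (3 of 4). Over all genes 71.3% were above the floor, and these classes are small.

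**Figure D3:**
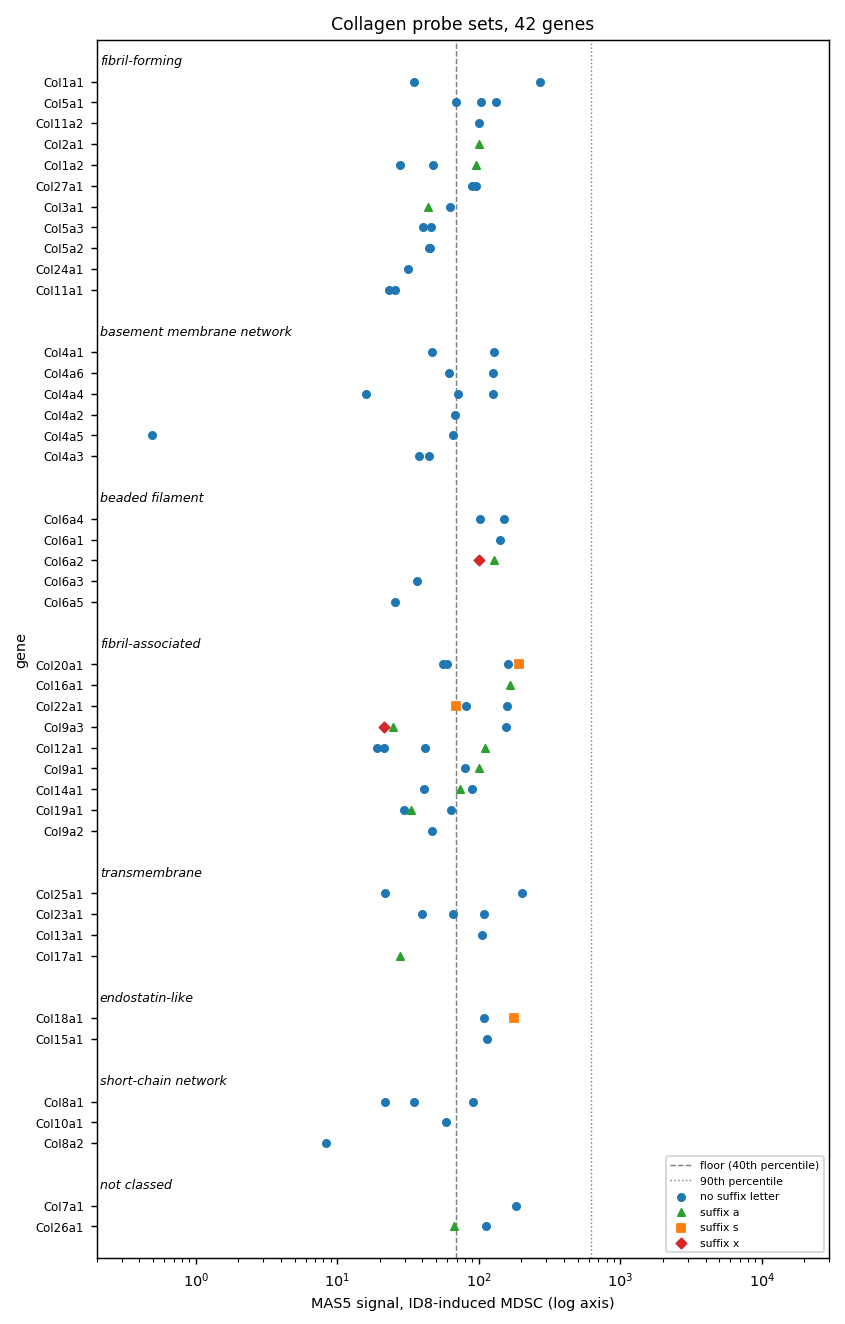
MAS5 signal of each collagen probe set on the ID8-induced MDSC array (log axis), in the same layout as for keratins. All probe sets lie at or below 270.02, left of the 90th percentile, and the floor runs through most genes with several probe sets.

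How a gene's probe sets were counted mattered most for the collagens. They had 1.95 probe sets per gene, the keratins 1.25 and the claudins 1.5, and a gene with more of them is more likely to have a bright one. Counted as probe sets, 28 of 55 keratin (50.9%), 17 of 30 claudin (56.7%) and 38 of 82 collagen probe sets (46.3%) were above the floor, against 63.5% of all 34945 named probe sets. Among genes with 1 probe set the counts were 18 of 36 keratins, 7 of 14 claudins and 7 of 15 collagens, against 57.7% of all such genes. Among genes with several they were 7 of 8, 5 of 6 and 20 of 27, against 85.2%. Every probe set was above the floor for 20 keratins (45.5%), 8 claudins (40%) and 13 collagens (31%), against 49.7% of all genes. The floor ran between the probe sets of 5 of 8 keratins, 4 of 6 claudins and 14 of 27 collagens with several probe sets, and of 43.7% of such genes on the whole array. The 3 families lay below the array-wide share in these counts above the floor, except the keratins with several probe sets (87.5%). Several of these counts are small and near the array-wide share, such as 5 of 6 claudins (83.3%, against 85.2%). A few genes would change their order, and no difference was tested.

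**Figure D4:**
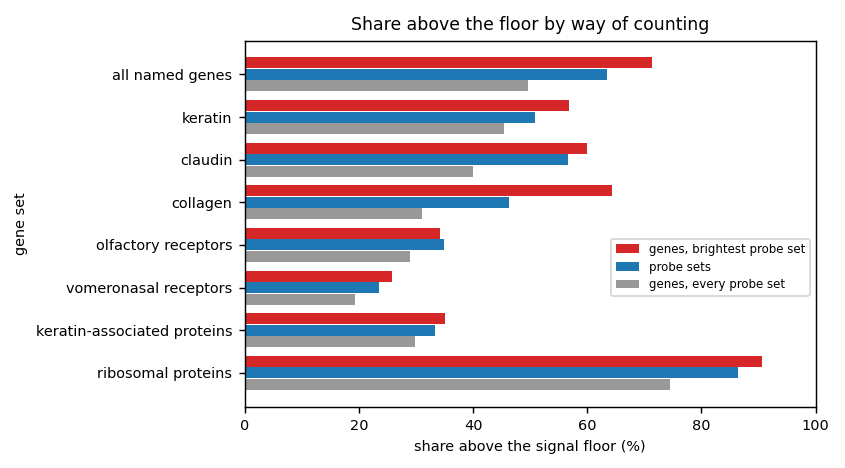
Share above the floor (%) for each family and for reference sets, counted as genes on the brightest probe set, as probe sets and as genes with every probe set above the floor. For collagens the share falls from 64.3% to 31% with the way of counting, and the 3 families lie below all named genes and above olfactory receptors, vomeronasal receptors and keratin-associated proteins in all 3 counts.

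Gene families of sensory neurons and hair served as a reading of the array where little transcript would be looked for in marrow. Olfactory receptors (symbols Olfr) were above the floor for 13 of 38 genes (34.2%, median signal 47.8). Vomeronasal receptors were above it for 8 of 31 (25.8%, median 28) and keratin-associated proteins of hair for 13 of 37 (35.1%, median 54.9). By the same count a floor at the 40th percentile is passed by genes of these families too, and passing it is not by itself a sign of expression. The keratin, claudin and collagen medians of 77.9, 73.84 and 100.1 lay above these medians and below the median of all genes. For collagens the place above olfactory receptors and keratin-associated proteins did not hold on the dimmest probe set. Read that way, the collagen median was 45.57, beside 45.82 for olfactory receptors and 50.3 for keratin-associated proteins, while keratins and claudins were at 62.8 and 61.7. With the mean log2 over probe sets the collagen median was 66, beside 47.5 and 50.3. On suffix-free probe sets it was 93.1, beside 46.5 and 52.6. The highest olfactory receptor signal was 181.68 and the highest keratin-associated protein signal 528.74. All members of the 3 families but Cldn1 and Krt42 read below the latter. At the other end, ribosomal protein genes were above the floor in 39 of 43 cases (90.7%, against 71.3% of all genes) with a median of 4409. That high median did not hold on suffix-free probe sets. There the median of 23 ribosomal protein genes was 117.84, beside 111.58 for all genes.

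**Figure D5:**
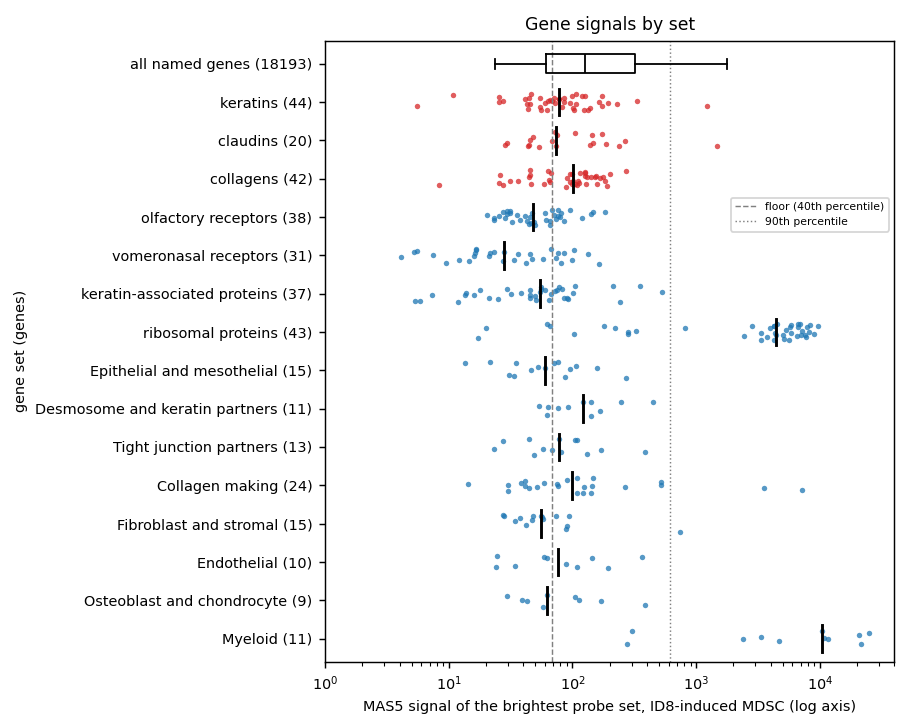
MAS5 signal of the brightest probe set (log axis) for each gene of the 3 families (red), of reference families and of marker lists (blue), with the median of each set as a black line. The box for all named genes spans the quartiles and its whiskers the 5th to 95th percentile. The 3 families overlap the olfactory receptors and the epithelial and stromal lists, and the myeloid markers lie at 278.31 and above.

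The partner genes of keratins and claudins lay on both sides of the floor. Of 11 measured desmosome and linker genes that anchor keratin filaments, 8 passed it on their brightest probe set (72.7%, near the 71.3% of all genes) and 0 reached the 90th percentile. These genes have 2.55 probe sets each on average, against 1.92 for all genes. Counted as probe sets, 11 of 28 passed the floor (39.3%, against 63.5%). On every probe set 2 of the 11 genes passed it (18.2%, against 49.7%). Plec, the linker plectin of many cell types, read up to 448.77, Dsp (desmoplakin) up to 142.29 and Jup (plakoglobin) 63.3. Of 13 measured tight junction partners, 7 were above the floor on their brightest probe set (53.8%, against 71.3% of all genes). They have 2.77 probe sets each on average. As probe sets, 10 of 36 passed it (27.8%, against 63.5%), and on every probe set 1 of the 13 genes did (7.7%, against 49.7%). F11r, a junction adhesion molecule that leukocytes and platelets also carry, read 66.19 and 382.17 on its 2 probe sets. Tjp1 (ZO-1) read 109.69 and Ocln (occludin) at most 23.08. Occludin and Marveld2 (tricellulin, 44.14) were below the floor, and Marveld3, a related protein of tight junctions, read up to 81.19, above it.

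The genes that make and fold collagen were read from a list as well. P4hb and P4ha1, the subunits of prolyl 4-hydroxylase, read 7161 and 3565. P4hb is also the general disulfide isomerase of the endoplasmic reticulum, and P4ha1 is a known hypoxia-inducible gene. Plod3 and Colgalt1, which modify lysines of collagen and of collagen-like proteins, read 523.17 and 523.88. Serpinh1, the chaperone specific to collagen, read 32.77 and 108.91, and Pcolce, which helps to cleave procollagen, 41.22 at most. In all, 15 of 24 measured genes of this list were above the floor (62.5%, against 71.3% of all genes). At or above the 90th percentile were 2 of 24 (8.3%, against 14.8% of all genes).

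Markers of the cells that could bring such transcripts were read on the same array, where 71.3% of all genes passed the floor and 14.8% reached the 90th percentile. Of 15 measured epithelial and mesothelial markers 7 passed the floor (46.7%) and 0 reached the 90th percentile, with signals from 13.4 to 272.6. Leaving out the 4 keratins in that list, 4 of 11 were above it (36.4%). The strongest was Grhl2, an epithelial transcription factor, at 272.6 on the brightest and 41.43 on the dimmest of 4 probe sets. Epcam read 58.32 and 158.91 and Msln (mesothelin) 87.77, while Cdh1 (E-cadherin) and Wt1 read 21.57 and 52.31, below the floor. Fibroblast and stromal markers were above the floor for 5 of 15 genes (33.3%), from 27.4 to 736.54. The highest was Fn1 (fibronectin, also made by macrophages). Cxcl12 and Lepr, known from marrow stroma, Mmp2 and Prrx1 read up to 93.6, 72.99, 90.56 and 89.38, above the floor. The dimmest probe sets of Cxcl12, Lepr, Mmp2 and Prrx1 read 25.92, 9.7, 68.48 and 7.35, below the floor. As probe sets, 7 of 32 of this list passed the floor (21.9%, against 63.5% of all named probe sets). Pdgfra, Pdgfrb, Dcn and Lum read at most 47.99, 55.2, 57.75 and 37.55, below it. Endothelial markers were above it for 5 of 10 genes (50%, 24.3 to 366) and osteoblast and chondrocyte markers for 4 of 9 (44.4%, 29.5 to 383.76). The part of these cells in the signals of the 3 families was not tested. All 11 measured myeloid markers of the labelled cell type were above the floor, from 278.31 to 24857, with Itgam, the CD11b gene, at 2375.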

How the data were processed

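Per the labels' protocols, cRNA for 1 Affymetrix array a group was labelled with biotin from 6 ug of total RNA. The submitters' processing notes name MAS5, with version, scaling target and detection calls not given in the sources used here. Intensity values were deposited as linear MAS5 signals of 45037 probe sets and taken as they are. GEO's platform annotation gave 34945 of them 1 symbol, 932 several and 9160 none, and the first kind was used. All 106 members were found by Entrez ID in the GRCm38.p6 gene table. A gene was read on its brightest probe set, and percentiles are over all probe sets. The counting and the order check were tested on simulated data.

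Members, lists and floor were chosen with earlier results of these data known. Named in each family were the 4 strongest genes, the 2 dimmest, those at or above the 90th percentile and a written list. Cldn2, Col4a5 and the keratins Krt20, Krt32 and Krt71 were added after their values were seen. Other settings tried were a floor at percentile 20 or 60, the mean log2 or the dimmest of a gene's probe sets, suffix-free probe sets, and symbols ending in a letter. Python 3.11.15, numpy 2.4.6, pandas 2.3.3 and matplotlib 3.10.9 were used.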

Additional observations from a re-analysis of the deposited data

Results flagged for a closer look

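The bone marrow control column is a measured array that no value above uses. Its highest signal is 26083.92, and since its signals stand in interleaved descending runs, no keratin, claudin or collagen value can be read from it.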

How the results depend on the processing

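With 1 array a group there is no replicate to leave out and no paired analysis was possible because each group has a single sample. A count or median was taken to move when it changed by more than 1.5 times. With the floor at the 20th percentile 39 of 44 keratins (88.6%) and 18 of 20 claudins (90%) passed it, no longer below the 87.5% of all genes, and 36 of 42 collagens (85.7%) did. With the floor at the 60th percentile 11 keratins (25%), 8 claudins (40%) and 15 collagens (35.7%) passed, against 51.6% of all genes. The claudin count of 12 ran from 8 to 18 over the alternatives and reached 1.5 times either way without exceeding it. On the dimmest probe set 13 collagens (31%) were above the floor, against 49.7% of all genes. The collagen median was 45.57 on the dimmest probe set and 66 with the mean log2 over probe sets, while the keratin and claudin medians did not move under the alternatives run. The median of all genes, 125.73 on the brightest probe set, was 93.9 with the mean log2 and 68.21 on the dimmest probe set. Keratins and claudins were at 62.8 and 61.7 on the dimmest probe set, so their medians lay much closer to that of all genes there. The count at or above the 90th percentile was 0 for keratins and 0 for claudins with the mean log2, with the dimmest probe set and on suffix-free probe sets, and it was 2 for keratins with symbols ending in a letter admitted. For claudins the last of these settings left it at 1. Of 41 named genes, 10 signals moved with the mean log2 (Krt42 to 338.93 and Cldn1 to 321.68), 13 with the dimmest probe set and 4 of 33 with suffix-free probe sets (Krt42 to 94.68, Cldn1 to 598.89, Col18a1 to 108.66 and Col1a2 to 47.75). The causes were not tested. Probe sequences were not used here, so cross-hybridisation between related family members could not be examined.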

Other observations

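Some relatives fell outside the families as defined because their symbols end in a letter or name a related gene. Krt6a, a type II keratin of wounded and stratified epithelium, read 10.31, 260.95 and 675.09 on 3 probe sets, while its near-identical neighbour Krt6b read 34.67 on 1. Probes for such close copies can bind the transcripts of both. Krt33a and Krt33b, of the hair shaft, read 22.59 and 78.5. Cldnd1, a claudin domain protein found in many tissues, read up to 372.48, and the 4 measured genes of the Cldn34 group read at most 44.57. The probe set assigned to both Krt17 and Krt14 read 45.85. These genes were picked for their names after the values were seen.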
